A study of Mus musculus with 10 samples.

Results

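The Sertoli cell genes described here are *Sox9*, *Wt1*, *Amh*, *Fshr*, *Clu*, *Inha*, *Inhbb*, *Gata4*, *Dhh* and *Trf*, 10 genes chosen by name as known markers of the somatic nurse cell of the seminiferous tubule. All transcripts with a RefSeq NM_ identifier that carried one of these gene names were taken, and their values were summed by gene. Of the 10 genes, 9 were listed in at least 1 sample, among 16082 known mRNA genes in the whole series, and *Fshr* was listed in none. The samples, all from C57BL/6 mice aged 3 to 5 months, were 4 pools of sperm and 2 of testes from controls, and 2 of each tissue after cadmium. Cadmium mice had received CdCl2 once into the peritoneal cavity at 3 mg/kg, controls had received saline, and all were killed on day 35, with 50 mice in each treatment group. These values are the labels', and the study's methods give another age range and another number of mice. Sperm came from several mice per control pool and had swum out of the vas deferens and caudal epididymis, after which other cells were lysed with detergent, so a sperm sample should hold few Sertoli cells and a testes sample holds them among many germ cells. By those methods the control testes were taken from the same mice as the control sperm. Control sperm replicate 1, which the study left out, was kept out of the tests and is shown among the values.

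Sertoli cells line the seminiferous tubule, hold the developing germ cells and form the blood-testis barrier. They are committed to their fate by *Sox9*, with *Wt1* and *Gata4* acting in the same gonadal programme, and they answer to follicle-stimulating hormone through the receptor *Fshr*. In return they secrete inhibin, built from the products of *Inha* and *Inhbb*, which lowers the hormone's release, anti-Müllerian hormone (*Amh*), Desert hedgehog (*Dhh*), which signals to Leydig and peritubular myoid cells, and carrier and chaperone proteins such as transferrin (*Trf*) and clusterin (*Clu*). *Amh* is known to be high in the immature testis and low in the adult.

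The 10 samples summed to between 366455 and 2866856 expected counts, of which 9.14 to 13.6% fell on known mRNA genes, and the 4 control sperm pools were the shallowest, at 366455 to 1058017. Expected counts estimate how many fragments a transcript gave, and 3 counts were taken as the least that a sample can show. The known mRNA genes listed per sample numbered from 1552 in control sperm to 12250 in control testes. Between samples of the same group the counts differed by at least 9.57 times what sampling noise gives (chi-square per degree of freedom), so none was a repeat of another. Control and cadmium testes with the same number lay nearer to each other, at 2.45 for replicates 1 and 3.31 for replicates 2, than the control testes did to one another (12.1) or the cadmium testes (9.57). The labels do not say whether those same-numbered testes share a day, a preparation or a sequencing run.

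The 2 ends of the range of levels were *Dhh*, the highest of the 10 genes in testes, and *Fshr*, which no sample listed, and 250 bases before the start that the RefSeq promoter table gives for each (GRCm38.p6) are shown. *Dhh* lies on chromosome 15, 98881615 to 98898562, on the minus strand, and its window is chr15:98898541-98898790, of which the 22 bases next to the start lie inside the annotated gene. *Fshr* lies on chromosome 17, 88984952 to 89200675, on the minus strand, and its window is chr17:89200676-89200925. Both are written 5′ to 3′ on the minus strand, and capitals mark the GATAA core read by GATA factors (TTATC on the other strand) and the CACGTG E-box.
Dhh: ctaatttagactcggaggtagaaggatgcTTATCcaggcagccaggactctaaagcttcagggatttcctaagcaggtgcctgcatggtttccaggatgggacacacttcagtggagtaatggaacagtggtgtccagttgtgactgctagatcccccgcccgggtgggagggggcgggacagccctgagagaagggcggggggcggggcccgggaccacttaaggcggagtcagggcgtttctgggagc
Fshr: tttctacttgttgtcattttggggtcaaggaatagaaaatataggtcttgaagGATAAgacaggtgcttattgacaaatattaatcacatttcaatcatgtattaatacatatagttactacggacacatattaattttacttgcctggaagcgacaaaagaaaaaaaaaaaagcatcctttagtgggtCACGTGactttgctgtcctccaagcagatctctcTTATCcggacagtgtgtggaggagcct
On both strands the *Dhh* window held 1 GATAA match, at -221 from the start, and the *Fshr* window held 2, at -197 and -27, with an E-box at -61. The 250-base windows of *Inha* and *Inhbb*, the other members in the table, held neither, and that of *Inha* lies wholly inside the annotated gene. GATAA occurred in 22.6% and CACGTG in 6.02% of all 32851 promoters of this length. The matches of the different motifs share no bases in these windows. The SOX core ACAAT (27.7% of promoters) and TATAAA (12.4%) were in none of the 4 windows. A match is a run of letters and not a binding site.

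In testes, the transcript of *Dhh* stood far above the other Sertoli cell genes. Its FPKM (fragments scaled to transcript length and library size, which allows levels to be set side by side between genes) was 13.92 and 18.31 in controls, and the testes of cadmium mice had 15.85 and 18.09, a mean of 16.5 ± 2.07 (SD, n = 4). The counts behind these values were 93, 111, 105 and 114. Every testes sample was above every sperm sample, and 97.4% of the known mRNA genes had a lower mean level in testes, with 413 genes higher.

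*Clu*, a secreted chaperone that is known both from Sertoli cells and from the epididymal epithelium, was next, at 1.97 and 2.17 FPKM in control testes, with 1.19 and 1.88 after cadmium (1.80 ± 0.426, SD, n = 4), on 6 to 10 counts. The level of *Dhh* was 9.61 ± 2.68 (SD, n = 4) times that of *Clu* in the same sample, or 7.75 in the control testes alone. All 4 values of *Dhh* lay above all 4 of *Clu*, so the first place in the order did not rest on the spread between samples.

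The genes of the hormone axis followed closely together. *Inha*, the inhibin alpha subunit, had 0.49, 1.08, 0.74 and 0.52 FPKM in control testes 1 and 2 and cadmium testes 1 and 2, from 2 to 4 counts. *Inhbb*, the beta B subunit, had 0.66, 0.54, 1.25 and 0.26, from 3 to 15 counts. *Amh* had 0.64, 0.71, 0.65 and 0.46, from 2 or 3 counts in each sample. Their means were 0.708 ± 0.272, 0.678 ± 0.417 and 0.615 ± 0.108 (SD, n = 4), and their ranges overlapped, so no order among *Inha*, *Inhbb* and *Amh* can be drawn. The highest *Inhbb* value also passed the lowest of *Clu*. *Fshr*, the receptor at the head of the axis, was at 0 counts in all 10 samples, which allows up to 3 counts in each.

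Among the transcription factors, *Wt1* had 0.68 and 0.18 FPKM in control testes, then 0.92 and 0 after cadmium (0.445 ± 0.428, SD, n = 4), from at most 8 counts, and its range overlapped those of *Inha*, *Inhbb* and *Amh*. *Gata4* had 0.21 and 0 in the controls, with 0 and 0.11 after cadmium (0.08 ± 0.101). *Sox9*, the defining factor of the lineage, had a single count in the 4 testes, in cadmium testes 1 (0.0225 ± 0.045). None of these *Sox9* and *Gata4* values reached 3 counts, so neither gene was detectable above the floor in testes at this depth. *Trf*, the transferrin that carries iron to germ cells, had 0.46 and 0.17 FPKM in control testes, and 0.15 and 0.16 after cadmium (0.235 ± 0.150), from 1 to 3 counts.

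**Figure D1:**
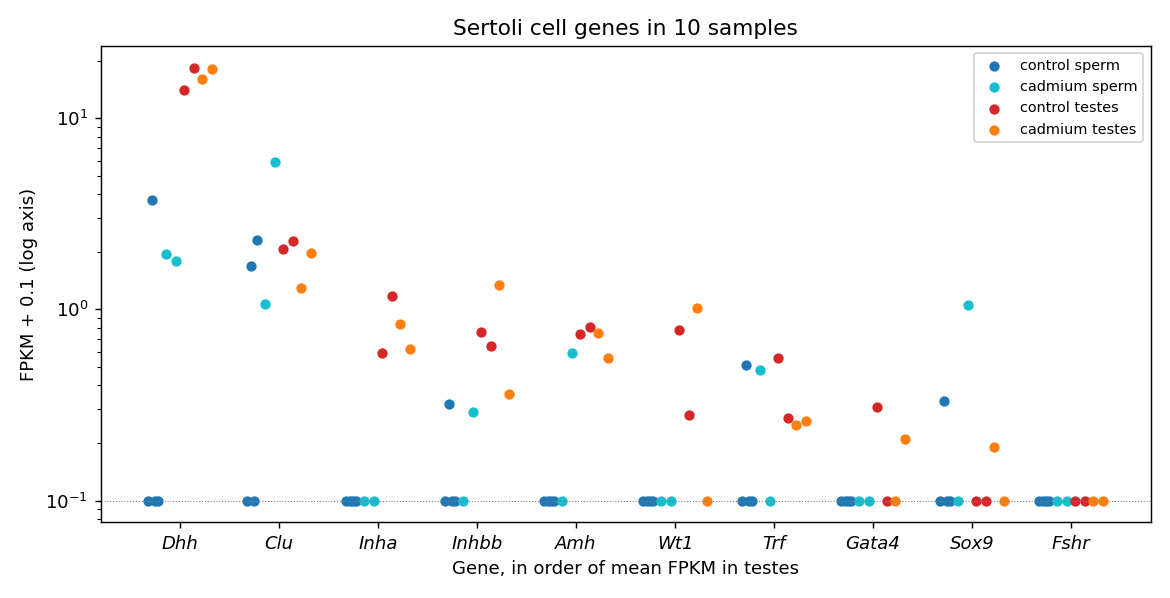
Level of each Sertoli cell gene in every sample, as FPKM + 0.1 on a log axis (each point is 1 sample, colour gives tissue and treatment, and the dotted line marks 0 FPKM). *Dhh* in the 4 testes lies between 13.92 and 18.31 and above all other points, whereas the other genes reach at most 2.17 FPKM in testes and *Fshr* is at 0 throughout.

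Against the known mRNA genes as a whole these levels were ordinary to low apart from *Dhh*. The median known mRNA gene had a testes mean of 0.361 FPKM and 2.5 counts. *Clu*, *Inha*, *Inhbb*, *Amh* and *Wt1* were above this median, with 80.4, 63.9, 62.9, 60.9 and 54.3% of the genes below them, and *Trf* (40.8%), *Gata4* (19.7%), *Sox9* (5.74%) and *Fshr* were under it. In counts, *Sox9*, *Gata4*, *Fshr*, *Trf*, *Amh* and *Inha* had at most 4 in any testes sample, at or near the floor. *Clu*, *Inhbb* and *Wt1* reached 10, 15 and 8 counts, and *Dhh* was well above the floor in every testes sample. None of the 10 genes overlaps another gene annotated by RefSeq, although *Wt1* lies 18 bases from the lncRNA gene *Wt1os*, *Dhh* lies 117 bases from *Rhebl1* and *Amh* 317 bases from *Sf3a2*. Overlap with the other known and predicted lncRNAs counted in this series was not checked, since no positions were given for them. *Rhebl1* was listed in cadmium sperm 1 alone, with 2 counts. The library was strand-specific, but the strand setting of the counting is not given in the sources used here. Of the known mRNA genes with an annotated strand, 15.4% overlap a protein-coding gene on the other strand, against 62.0% of the 50 with the highest mean count in testes. *Prm1*, which the study used as a sperm marker, had 123 and 116 counts in control testes and 118 and 128 after cadmium. These counts were near the 93 to 114 of *Dhh*, although the FPKM of *Prm1* were higher, at 117.96 to 135.58. What part the strand setting has in the low counts of most Sertoli cell genes, in those of *Prm1*, or in the high count of *Dhh*, was not tested.

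In sperm, few Sertoli cell gene transcripts were listed. Control sperm replicates 1 and 3 listed none of the 10 genes, replicate 4 listed *Clu* alone and replicate 2, the deepest control pool, listed 5. Cadmium sperm listed 3 and 5, and the testes samples listed 7 or 8 each. *Dhh* had 9 counts (3.63 FPKM) in control sperm 2, 0 in the other control pools, and 5 counts in each cadmium sperm sample (1.85 and 1.7 FPKM). *Clu* had 3 counts (1.59 FPKM) in control sperm 2, 2 (2.21 FPKM) in control sperm 4, and 2 (0.97 FPKM) and 13 (5.82 FPKM) in cadmium sperm. The highest *Clu* level of the whole series was thus in cadmium sperm 2, above all testes, and the range of *Clu* in sperm enclosed that in testes. *Sox9* also had its highest level there, with 4.98 counts (0.96 FPKM) in cadmium sperm 2 and 1 count in control sperm 2. *Inha*, *Wt1*, *Gata4* and *Fshr* were at 0 in all 6 sperm samples. *Amh* had 1 count in cadmium sperm 2, *Inhbb* 1 each in control sperm 2 and cadmium sperm 2, and *Trf* 1 each in control sperm 2 and cadmium sperm 1.

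Because sperm libraries were shallower, the counts were set beside those that each gene's share of known mRNA counts in testes of the same treatment would give at the depth of sperm. For *Dhh* this came to 13.6, 32.0, 10.7 and 17.4 counts in control sperm 1 to 4, where 0, 9, 0 and 0 were found. In cadmium sperm it came to 54.2 and 45.4 counts, where 5 were found in each. *Dhh* was therefore below its testes share in all 6 sperm samples. For *Clu* the sum over control sperm 2, 3 and 4 was 5 counts against 5.90 at the testes share, and that over cadmium sperm was 15 against 6.82. For *Inhbb* the sums were 1 against 4.13 and 1 against 8.19, and for *Wt1* 0 against 2.19 and 0 against 3.64. *Inha* had 0 counts against 1.77 in control and 2.27 in cadmium sperm, *Amh* 0 and 1 against the same values, and *Trf* 1 and 1 against 1.18 and 0.910. For *Amh*, *Inha*, *Trf*, *Gata4* and *Sox9* the testes share gave fewer than 3 counts in sperm, so a lower level in sperm was not detectable at this depth. Sample by sample this also held for *Wt1* in all 6 sperm samples, at 0.390 to 1.98 counts. It held for *Inhbb* in the control pools, at 0.737 to 2.20 counts.

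**Figure D2:**
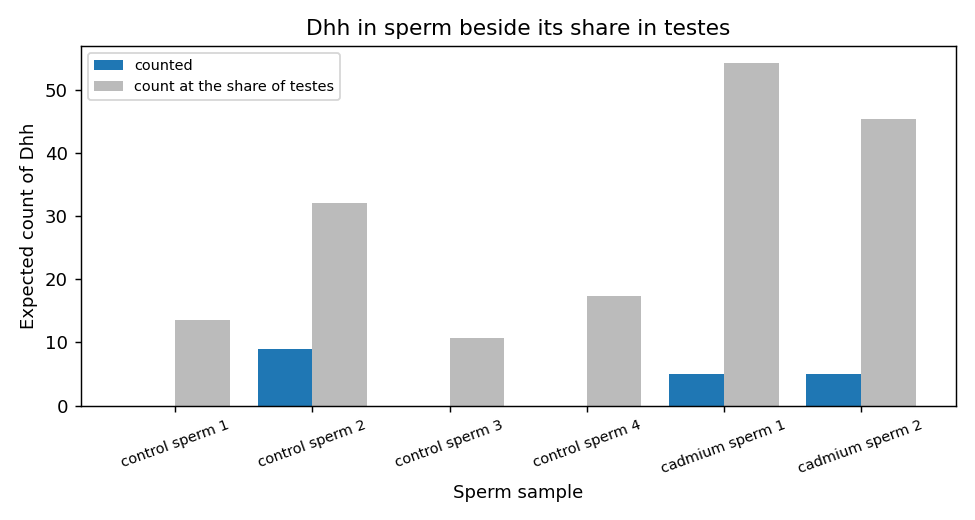
Expected count of *Dhh* in each sperm sample (blue) beside the count that its share in testes of the same treatment would give at that sample's depth (grey). The counted value is lower in all 6 sperm samples, 9 against 32.0 in control sperm 2 and 5 against 54.2 and 45.4 in cadmium sperm.

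Summed over the 10 genes, Sertoli cell transcripts made up 0.0394 and 0.0434% of known mRNA counts in control testes, and cadmium testes had 0.0443 and 0.0420%. In sperm the shares were 0, 0.0150, 0 and 0.00368% in control pools 1 to 4 and 0.00509 and 0.0190% in cadmium sperm. The highest sperm sample had a 95% Wilson interval of 0.0129 to 0.0280%, below the lowest testes interval of 0.0331 to 0.0468%. With 0 counts, control sperm 1 and 3 allowed shares of up to 0.00906 and 0.0115%. *Dhh* carried this difference, since it made up 73.2 to 86.4% of the member counts in testes. Without it, the other 9 genes had 0.00931 ± 0.00173% (SD, n = 2) in control testes and 0.00323 ± 0.00302% (n = 3) in control sperm, but 0.00864 ± 0.00412% (n = 2) and 0.00855 ± 0.00939% (n = 2) in cadmium testes and sperm, which overlapped. In bulk samples, fewer cells of a type and less RNA per cell cannot be told apart. Intervals and floors cover counting error only.

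**Figure D3:**
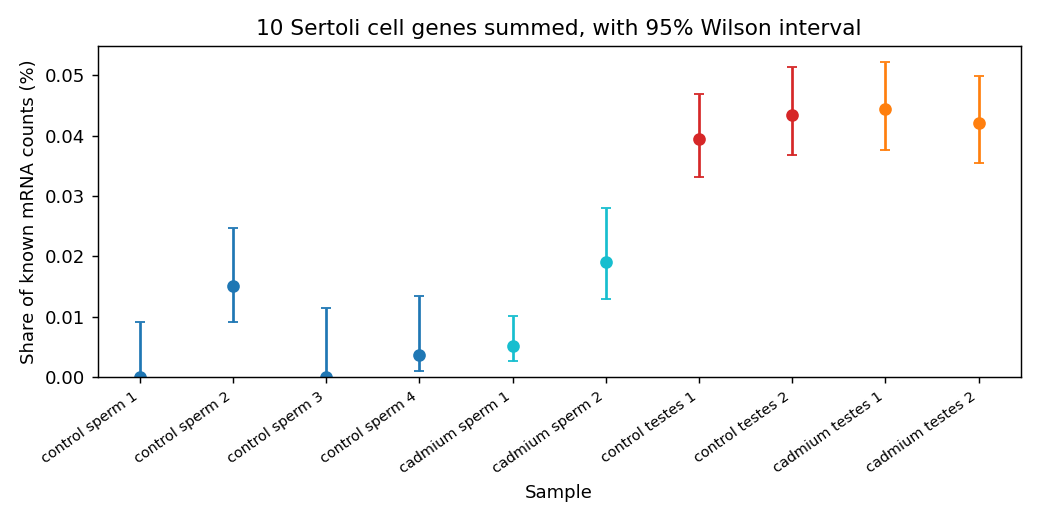
Share of known mRNA counts taken by the 10 Sertoli cell genes in each sample (percent), with the 95% Wilson interval as the bar. The 4 testes lie between 0.0394 and 0.0443% and the 6 sperm samples between 0 and 0.0190%, without overlap of the intervals.

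The comparison of sperm with testes asks which of these RNAs differ between mature sperm and the organ that made them. Of the 10 genes, *Dhh* and *Clu* passed the filter of 1 FPKM in 2 samples and could be tested, and the other 8 were too low. In the control samples *Dhh* was lower in sperm, with a log2 fold change of -3.48 (SE 1.27, adjusted p = 0.0465, edgeR quasi-likelihood test with Benjamini-Hochberg adjustment over 24432 genes), while *Clu* had -0.73 (SE 1.43, adjusted p = 0.747, same edgeR test). Over all genes tested the same call was made for 22% (17.8% lower and 4.19% higher), and the median log2 fold change was -1.24, so a lower call is common in this comparison. The call of *Dhh* was lost under most other settings. Its adjusted p was 0.0610 with DESeq2, 0.0558 and 0.151 with limma at pseudocounts of 1 and 0.1, 0.148 with no filter in edgeR, 0.0515 with known mRNA genes alone in edgeR and 0.0579 in edgeR once control sperm 1 was added. It was also lost without control sperm 4 (adjusted p = 0.219, edgeR), control testes 1 (0.429) or control testes 2 (0.826), and without control sperm 2, the control pool that listed *Dhh*, the log2 fold change was -9.01 (adjusted p = 0.0349, edgeR).

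In the cadmium samples, which share no library with the control comparison, *Dhh* was again lower in sperm, with a log2 fold change of -3.02 (SE 0.68, adjusted p = 0.0001, edgeR with Benjamini-Hochberg adjustment over 25780 genes). These comparisons may not be independent, since same-numbered control and cadmium testes lay nearer to each other than replicates of a testes group did. Both cadmium sperm samples (1.85 and 1.7 FPKM) lay below both cadmium testes samples. Here 31.7% of all genes were called (15.4% lower and 16.3% higher) around a median log2 fold change of -0.29. *Dhh* was called in all 13 other settings tried, between -3.45 and -2.69. *Clu* had a log2 fold change of 1.43 (SE 0.88, adjusted p = 0.209, edgeR), and its direction rested on a single library. Without cadmium sperm 2 it was -0.50 (adjusted p = 0.796, edgeR), and without cadmium sperm 1 it was 2.30 and passed the test (adjusted p = 0.0348, edgeR, with 1 sperm sample assumed to vary like the testes). With no filter in edgeR, 9 of the 10 genes could be tested in each tissue comparison, of which 0 were called in controls and *Dhh* alone in cadmium mice. *Dhh* was also the only one with an unadjusted p under 0.05 there.

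**Figure D4:**
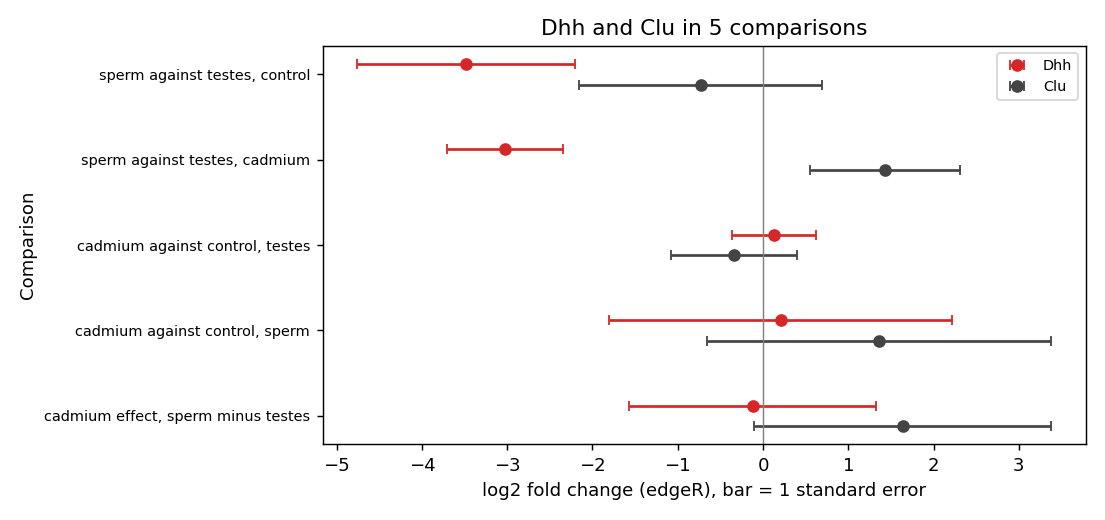
Log2 fold change of *Dhh* (red) and *Clu* (grey) in the 5 comparisons, from edgeR, with a bar of 1 standard error on each side. *Dhh* lies at -3.48 and -3.02 for sperm against testes and within 1 standard error of 0 in the other comparisons.

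Markers of other cells that a testis or a sperm pool could hold were set beside *Dhh* as the share of known mRNA counts that each list took, since sperm libraries were shallower. Spermatogonial markers (7 genes, with *Kit* at 0 in 9 of the 10 samples) took 0.0769 and 0.0993% in control testes and 0.0100, 0.0179 and 0.0129% in control sperm 2, 3 and 4, and after cadmium 0.0874 and 0.105% in testes against 0.0166 and 0.0167% in sperm. In each testes sample 1 or 2 of these 7 genes reached 3 counts, so the list's testes shares rested on 1 or 2 genes. Within that list the tested genes did not go one way, since *Gfra1* was lower in cadmium sperm (log2 fold change -4.77, SE 0.70, adjusted p = 3.9e-10, edgeR) and *Sohlh1* higher (3.61, SE 0.85, adjusted p = 0.00021, edgeR). Spermatocyte markers (7 genes) also took smaller shares in sperm without overlap, at 0.0273 and 0.0334% in control testes against 0.00800, 0 and 0.00920%, and 0.0175 and 0.0302% against 0.00828 and 0.00760% in cadmium mice. Leydig cell markers (8 genes, *Lhcgr* at 0 in all samples) took 0.0580 and 0.0544% in control testes and 0.0170, 0.119 and 0.0110% in control sperm 2, 3 and 4. Control sperm 3, which listed no Sertoli cell gene, was thus above the testes, but on 40 counts of 1 Leydig gene. In cadmium mice the Leydig markers took 0.0564 and 0.0385% in testes and 0.0102 and 0.0236% in sperm. Of the 2 Leydig genes tested under each treatment, *Insl3* was called lower in sperm in both (log2 fold changes -4.63 and -5.38, edgeR). The other was not called. Peritubular myoid markers (6 genes, all listed in control testes) took 0.0232 and 0.0200% in control testes and 0.00800, 0.0209 and 0.00184% in control sperm, which overlapped, and 0.0275 and 0.0185% against 0.00701 and 0.0152% in cadmium mice. The summed share of spermatid markers (8 genes) overlapped between sperm and testes under both treatments. It was 0.149 to 0.259% in control sperm 2 to 4 and 0.193 to 0.258% in control testes. After cadmium it was 0.178 to 0.253% in sperm and 0.238 to 0.246% in testes. In control sperm 2, 3 and 4, *Prm2* held 148, 49 and 130 of the list's 191, 50 and 141 counts. Of the 8 genes tested between control tissues and the 7 between cadmium tissues, 4 were called lower in sperm each time and 0 higher. Over all genes 17.8 and 15.4% were called lower. *Tnp1* had log2 fold changes of -5.21 in control and -4.25 in cadmium samples (edgeR). Macrophage and leukocyte markers (8 genes, *Adgre1* at 0 in all samples) overlapped too, at 0.0120, 0 and 0.0129% in control sperm and 0.0102 and 0.00605% in control testes, while cadmium sperm had 0.0140 and 0.00837% and cadmium testes 0.00874 and 0.00573%. The part of these cells in the sperm and testes values of *Dhh* was not tested. Epididymal and vas markers (10 genes), of interest for *Clu*, had 8 counts over 3 genes in cadmium sperm 2 and 5 over 2 genes in cadmium sperm 1, with *Lcn5* and *Lcn8* at 0 in both, and their part in the high *Clu* value was not tested. Endothelial markers (6 genes, *Pecam1* and *Cdh5* at 0 in all samples) stayed below 3 counts in every sample.

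Cadmium, a metal known to damage the blood-testis barrier, was compared with saline within each tissue. In testes *Dhh* was 16.1 ± 3.10 FPKM (SD, n = 2) in controls and 16.97 ± 1.58 (n = 2) after cadmium, with overlapping samples, and its log2 fold change was 0.13 (SE 0.49, adjusted p = 1.00, edgeR with Benjamini-Hochberg adjustment over 26724 genes). *Clu* was 2.07 ± 0.141 FPKM (SD, n = 2) in control and 1.54 ± 0.488 (n = 2) in cadmium testes, with both cadmium values below both control values, and its log2 fold change was -0.34 (SE 0.74, adjusted p = 1.00, edgeR). In all, 0.0225% of the genes were called in testes, 6 of 26724 with edgeR and 5 with DESeq2, and 226 had an unadjusted p under 0.05 with edgeR. For *Inha*, *Inhbb*, *Amh*, *Wt1*, *Gata4* and *Sox9* the control and cadmium testes overlapped, on 15 counts or fewer in each sample. Both *Trf* values after cadmium lay under both control values, at 1 count each against 3 and 1. With 2 samples a group these values bound the change of *Dhh* only loosely, and a p that misses the threshold does not show that the groups were alike.

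In sperm the cadmium samples listed *Dhh* in both libraries and the controls in 1 of 4 pools, but the deepest control pool had the highest value. The log2 fold change of *Dhh* between cadmium sperm and control sperm 2, 3 and 4 was 0.21 (SE 2.01, adjusted p = 1.00, edgeR with Benjamini-Hochberg adjustment over 20640 genes), and that of *Clu* was 1.36 (SE 2.01, adjusted p = 1.00, edgeR). The call was made for 0.0824% of all genes. Without control sperm 2 the log2 fold change of *Dhh* was 4.87, and without control sperm 4 it was -0.42, neither of them called. The cadmium effect in sperm minus that in testes, tested as an interaction over 9 samples, was -0.12 for *Dhh* (SE 1.45) and 1.64 for *Clu* (SE 1.74), both with an adjusted p of 1.00 (edgeR with Benjamini-Hochberg adjustment), where 0.0396% of 32814 genes were called. No Sertoli cell gene was called for cadmium in either tissue or for the difference between the tissues with edgeR, DESeq2 or limma, and with no filter in edgeR none of the 9, 6 and 9 genes that could then be tested had an unadjusted p under 0.05.

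Partners of the Sertoli cell genes were looked at in 5 lists. Of 12 genes of follicle-stimulating hormone, inhibin, activin and *Amh* signalling, 6 could be tested in the control tissues and 1 was called, lower in sperm. This was *Acvr2b*, a type II activin receptor, with 102.8 and 84 counts in control testes and 3.75, 0 and 0 in control sperm 2 to 4 (log2 fold change -4.35, SE 1.41, adjusted p = 0.0334, edgeR). In the cadmium tissues 5 could be tested, of which 2 were lower and 2 higher in sperm. *Acvr2b* was lower there too (log2 fold change -3.97, SE 0.80, adjusted p = 1.17e-05, edgeR), as was *Acvr2a*, the other type II activin receptor (-2.73, SE 0.84, adjusted p = 0.00594, edgeR). *Gnas*, the stimulatory G protein subunit that couples receptors to cAMP, was higher in sperm (2.26, SE 0.58, adjusted p = 0.000852, edgeR), with 18.66 and 28.17 FPKM against 7.12 and 4.66 in testes. The other gene that was higher, *Amhr2*, the receptor of anti-Müllerian hormone, is named after its value was seen and had 5 and 7 counts against 4 and 1 (2.69, SE 1.05, adjusted p = 0.0359, edgeR). Between control tissues *Amhr2* was not higher in sperm (-0.38, SE 1.22, adjusted p = 0.856, edgeR). *Gnas* (2.04, SE 1.11, adjusted p = 0.179, edgeR) and *Acvr2a* (-3.03, SE 1.49, adjusted p = 0.136, edgeR) were not called there either. The ligand genes *Inhbb* and *Amh* were too low to test. Over all genes, 22% were called between control tissues (17.8% lower in sperm) and 31.7% between cadmium tissues (15.4% lower and 16.3% higher). The list's median log2 fold changes over the genes tested were -1.12 and -1.52, beside -1.24 and -0.29 over all genes.

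Of 8 genes of Desert hedgehog signalling, *Gli1* and *Gli3* were at 0 in all samples, and the receptor gene *Ptch1* had 2 counts in control testes 1, 1 in cadmium sperm 2 and none elsewhere. The high level of *Dhh* in testes thus stood beside receptor and target transcripts at or under the floor. Only *Hhat*, the acyltransferase that palmitoylates hedgehog proteins, could be tested between control tissues, and it was higher in sperm (log2 fold change 5.26, SE 2.02, adjusted p = 0.0489, edgeR). That call rested on 14 counts in control sperm 3 and 3 in control sperm 2, with 0 in control sperm 4 and 1 and 0 in the testes. None of the 8 could be tested in the cadmium tissues. Of 12 further gonadal transcription factors, 1 or 2 could be tested between tissues and none was called. Of 12 other Sertoli products, *Shbg* and *Cdkn1b* were at 0 throughout, 2 could be tested in the control tissues with no call, and in the cadmium tissues the 1 tested, the beta-defensin *Defb19*, was lower in sperm (log2 fold change -7.21, SE 1.83, adjusted p = 0.000679, edgeR). *Defb19* had 45 counts in cadmium testes 2 and 1 in cadmium testes 1, and cadmium testes 2 was also the library with the most epididymal marker counts, 53 over 8 of 10 genes, of which *Adam7* had 33 and *Lcn5* 7. Whether the *Defb19* value moves with these was not tested. Of 8 iron handling genes, the setting in which *Trf* acts, *Slc40a1* and *Steap3* were at 0 in all samples and none of the 1 or 2 tested between tissues was called. In all 5 lists no gene was called for cadmium in testes or sperm.

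Whether the 10 genes share one profile cannot be decided here. With 0.1 FPKM added, a gene at a low level in testes can fall less in sperm than *Dhh* can. Across the 10 samples, each gene's log2(FPKM + 0.1) was centred on its testes mean, and the members lay between 0.55 (*Inhbb*) and 2.18 (*Dhh*) log2 units from their own median profile, as the mean absolute difference. Among 6683 other known mRNA genes, those nearest to that median were *Nsun5* (0.30), *Ybx2* (0.32), *Ovol1* (0.35), *Ythdf3* (0.36) and *Elfn2* (0.38). Their mean levels were 44.9, 43.6, 60.0, 16.04 and 144 FPKM in testes and 14.2, 16.6, 29.1, 5.77 and 52.6 in sperm. All 5 were at higher levels than 9 of the 10 members in testes. They are the nearest of 6683 and most members rest on few counts, so the likeness describes 10 libraries that also differ in depth.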

How the data were processed

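Paired-end, strand-specific libraries were made from mouse sperm and testes RNA after RNase H had removed ribosomal RNA. The authors removed adaptors and low-quality reads, mapped reads with SOAPaligner/SOAP2 (HISAT and mm10 are named in the submitters' processing notes) and wrote, for each sample, a table of transcripts above 0. Expected counts were deposited by the authors without normalization, and 5 of the 45 listed values of the members were not whole. FPKM, also deposited by the authors, correct for transcript length and library size. The counting tool and its strand setting are not given in the sources used here. The samples summed to 366455 to 2866856 counts, and unlisted transcripts were set to 0.

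Groups came from the labels. The study's methods describe the control sperm pools as separate groups of mice and take both control testes replicates from those same mice. For the cadmium samples neither labels nor methods say whether replicates came from separate mice, so p-values there measure only the spread between samples, which may be technical. Counts were summed by gene within each transcript class, rounded and tested over all genes with at least 1 FPKM in at least 2 samples with edgeR 4.0.16 in R 4.3.3 (TMM, quasi-likelihood, Benjamini-Hochberg, called at an adjusted p under 0.05 and more than 2-fold). Standard errors are the log2 fold change divided by the square root of F and are worked back from the test. The test was checked on simulated data, in which changes were planted only in genes above a minimum mean count. That check does not bear on the members with few counts. DESeq2 1.42.0, limma 3.58.1, other filters, scalings, transcripts, left-out or added replicates and a replicate block were alternatives. Levels, shares, Wilson intervals, motifs and figures came from Python 3.11.15 with pandas 2.3.3, statsmodels 0.14.6, scipy 1.17.1, numpy 2.4.6 and matplotlib 3.10.9. Positions and sequences are RefSeq's for GRCm38.p6, in which all 10 members matched by gene and 4 had a promoter sequence.

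Named were all members, at most the 3 called genes of smallest p in each list and comparison, and the 5 genes nearest in profile. Members and lists were chosen with earlier results of these data known.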

Additional observations from a re-analysis of the deposited data

Results flagged for a closer look

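In the 4 control sperm pools, 6 sets of values were not all 0, those of 5 Sertoli cell genes and their sum, and 4 of them had 1 pool far from the others by Dixon's test at the 95% level. All 4 were in control sperm 2, with 3.63 FPKM for *Dhh*, 0.22 for *Inhbb*, 0.23 for *Sox9* and 0.41 for *Trf*, and the other 3 pools were at 0 for each. Behind these values were 9 counts for *Dhh* and 1 count for each of the others. With 3 pools at 0, any value above 0 in the other one passes this test whatever its size, so a single count is enough and the usual rate of about 1 in 20 by chance does not hold for these genes. Control sperm 2 was the deepest control pool, with 1058017 counts against 366455 to 508252 in the others, and the part of depth in these values was not tested.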

How the results depend on the processing

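Between control tissues, 1 Sertoli cell gene was called, and 0 were with DESeq2, limma at either pseudocount, no filter, known mRNA genes alone or control sperm 1 added. Leaving out a replicate gave 0 to 1 called genes there, and 1 to 2 between cadmium tissues, where 1 had been called. The log2 fold change of *Dhh* kept its sign in all 16 settings between control tissues (-9.01 to -2.73, adjusted p 0.0258 to 0.826) and in all 13 between cadmium tissues (adjusted p 3.34e-05 to 0.0336). Without cadmium sperm 2, *Clu* turned to -0.50 between cadmium tissues, and without cadmium sperm 1 it was 2.30. For cadmium in testes, leaving out a replicate gave -0.22 to 0.58 for *Dhh* and -0.90 to 0.0451 for *Clu*. For cadmium in sperm it gave -0.42 to 4.87 and -0.55 to 2.14. For the difference between the tissues it gave -0.65 to 5.96 for *Dhh*, which also turned to 0.66 and 2.40 with limma at pseudocounts of 1 and 0.1, 0.23 with no filter, 0.31 with known mRNA genes alone and 0.33 with control sperm 1 added. The cause of these reversals was not tested, and none of these values was called.

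Same-numbered samples share only a number in the labels. Their deviations correlated at 0.52 in testes, 0.10 between cadmium sperm and testes, -0.04 between control and cadmium sperm, and -0.06 between control sperm and testes. With the replicate number as a block, *Dhh* was -2.99 between cadmium tissues (adjusted p = 3.34e-05, edgeR) with 1 Sertoli cell gene called, and 0.15 for cadmium in testes, where 89 genes in all were called against 6. Between control tissues, control sperm 1 and 2 alone gave 0 called members with the block (*Dhh* adjusted p = 0.449, edgeR) and 0 without it (0.143). For cadmium in sperm, the same pools gave *Dhh* 0.51 with the block and -0.34 without it.

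Counts of all genes called ranged over the settings from 880 to 7129 between control tissues (5373 as reported), 1619 to 9259 between cadmium tissues (8168), 0 to 89 for cadmium in testes (6), 0 to 1168 for cadmium in sperm (17) and 0 to 26 for the difference (13). Higher and lower calls were 1024 and 4349 between control tissues and 4191 and 3977 between cadmium tissues, against 167 and 1048, and 1092 and 1203, with known mRNA genes alone. The ratio of *Dhh* to *Clu* in testes was 12.6 in counts scaled to library size alone. It was 7.75 without the cadmium testes, a choice made after seeing the data. The members' share was 0.00483% of all counts in control testes, 0.00493% in cadmium testes and 0.00134% in cadmium sperm. Without *Dhh* it was 0.00931% of known mRNA counts in control and 0.00864% in cadmium testes, and without *Clu* 0.0382 and 0.0408%. Depth limits the other 8 genes, which held at most 15 counts in any sample.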
